A study of Mus musculus with 2 samples.

Results

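The SOX transcription factor family was examined in chondrospheres, colonies that grew from single cartilage cells. The members were 9 genes chosen by symbol from the 23628 genes with a value in each library, and they fall into SOXE (*Sox8*, *Sox9* and *Sox10*), SOXD (*Sox5*, *Sox6* and *Sox13*) and SOXC (*Sox4*, *Sox11* and *Sox12*). There were 2 libraries of 1 condition, replicates 1 and 2. The cells came from femoral heads of pups at postnatal day 7 that carry the homozygous *Sox9* IRES-EGFP reporter, and were sorted as high in GFP and negative for CD31, Ter119 and CD45. They grew at low density in methylcellulose under low oxygen, with serum, FGF2, BMP4, IGF1, LIF and TGF-β1. The methods take each pup as a biological replicate, and the number of pups or colonies behind each library is not given in the sources used here. Because the sort used a reporter at the *Sox9* locus, the detection of *Sox9* itself is partly set by how the cells were chosen.

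SOX proteins bind the minor groove of DNA through a high mobility group (HMG) box and are grouped by the sequence of that box. SOX9 is required for cartilage formation and activates genes of the cartilage matrix, while SOX5 and SOX6, which lack an activation domain of their own, bind with it at the same enhancers as the SOX trio. SOX8 and SOX10 are the relatives of SOX9, with SOX10 best known from neural crest, Schwann cells and melanocytes, and the SOXC proteins are best known from progenitor cells of many tissues.

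The start of the HMG box is shown because it is the stretch that makes these genes 1 family, and because reads from near-identical stretches could be divided among members. Each line gives 30 bases of the coding strand, 5′ to 3′, from the GENCODE M21 transcripts of GRCm38, with capitals at positions that differ from *Sox9*.
*Sox9*: aagcgacccatgaacgccttcatggtgtgg, chr11:112782900-112782929, plus strand.
*Sox8*: aagcgGcccatgaaTgccttcatggtgtgg, chr17:25570196-25570225, minus strand.
*Sox10*: aagAgGcccatgaacgccttcatggtgtgg, chr15:79163375-79163404, minus strand.
*Sox5*: aagcgTccAatgaaTgccttcatggtgtgg, chr6:143841247-143841276, minus strand.
*Sox6*: aagcgaccAatgaaTgcGttcatggtTtgg, chr7:115489736-115489765, minus strand.
*Sox13*: aagAgacccatgaaTgccttcatggtgtgg, chr1:133385539-133385568, minus strand.
*Sox4*: aagcgGcccatgaacgccttTatggtgtgg, chr13:28952815-28952844, minus strand.
*Sox11*: aaAcgGcccatgaacgccttcatggtgtgg, chr12:27342232-27342261, minus strand.
*Sox12*: aagcgGccGatgaacgcGttcatggtgtgg, chr2:152397549-152397578, minus strand.

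No other member differed from *Sox9* at more than 4 of these 30 bases, the number found in *Sox6*. Over the whole window of 210 bases that starts there, and after translation to 70 residues, the 9 pairs within a group shared 87.1% to 98.6% of residues. The 27 pairs between groups shared 47.1% to 67.1%. That the 2 ranges did not overlap follows from the grouping, which is made by the sequence of this box. SOX9 and SOX8 were the closest pair, and SOX9 shared 51.4% with SOX5 and 48.6% with SOX6, its partners in the trio. The identity map of the HMG box shows the 3 groups as blocks.

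**Figure D1:**
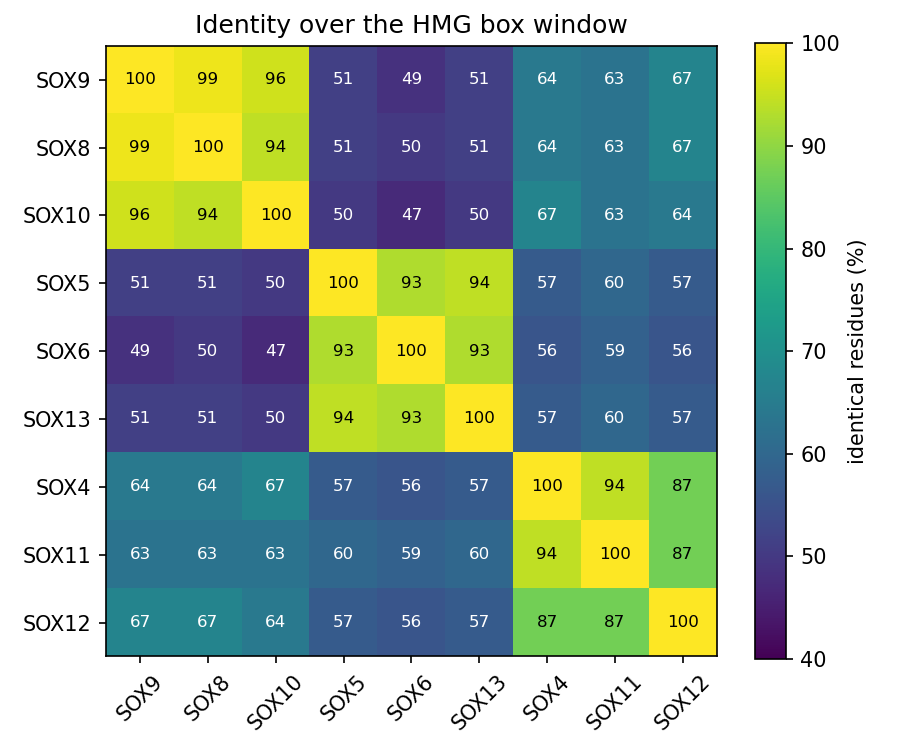
Percentage of identical residues over the 70-residue HMG box window for each pair of the 9 members, with genes in rows and columns. The 3 blocks of high identity along the diagonal are SOXE, SOXD and SOXC, and pairs outside the blocks reached at most 67.1%.

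The gene structures also set SOXC apart from SOXE and SOXD. In the longest coding transcript of *Sox4*, *Sox11* and *Sox12* the whole coding sequence lies in 1 exon, whereas in the 6 SOXE and SOXD genes an intron splits the HMG box between 2 exons. *Sox5* spans 953553 bases of chromosome 6 and *Sox6* 567925 bases of chromosome 7, against 5537 bases for *Sox9* on chromosome 11 and 4795 for *Sox4* on chromosome 13. *Sox5* has 14 annotated transcripts and *Sox6* has 16, while *Sox9*, *Sox4* and *Sox11* have 1 each. The values are per gene, so long and short *Sox5* products were not told apart.

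Reads of the libraries were 50 bases long, and no window of 50 bases in the longest coding transcript of any member occurred in a transcript of another member. The longest run shared at the same place of the HMG box was 48 bases, between *Sox4* and *Sox11*. Overlap with antisense genes was larger. For *Sox4*, 54.1% of the windows also lie, on the opposite strand, in *Gm26735*, and for *Sox8* 9.49% lie in *2810468N07Rik*. For *Sox5*, 0.792% of the windows lie in other genes, and 9.25% of its annotated exon bases overlap the antisense gene *Sox5os1*. The libraries were stranded, but whether counting used the strand is not given in the sources used here. The levels of *Sox4*, *Sox8* and *Sox5* are uncertain to that extent. *Sox9*, *Sox6*, *Sox10*, *Sox11*, *Sox12* and *Sox13* shared no window with another gene. *Gm26735* and *2810468N07Rik* had no value under these names, so their levels could not be given.

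The values are CPM, read counts per gene scaled to a common total in each library. From the steps between low values, replicate 1 held about 43300000 reads and replicate 2 about 42100000. The level of 3 reads was then 0.0693 and 0.0712 CPM, and intervals of 95% below are exact Poisson intervals on the implied reads that cover counting error only. Whole reads were not recovered, since 63.7% and 62.7% of the values under 1 CPM were whole multiples of the step within 0.02 of a read. With 1 condition there was no test between groups, and the SD measures the spread of these 2 libraries. Of the 6 chondrocyte markers checked, 6 had 100 CPM or more in replicate 1 and 5 in replicate 2, where *Matn1*, the gene of a cartilage matrilin, had 29.2 CPM against 902 in replicate 1. Over the 12631 genes that averaged 1 CPM or more, the log2 ratio of replicate 2 to replicate 1 had a median of 0.30, and differences between libraries are read against it. In bulk samples fewer cells of a type and less RNA per cell cannot be told apart.

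*Sox9*, the master regulator of the cartilage lineage, was strongly expressed in both libraries. It had 252 CPM in replicate 1 (interval 247 to 257) and 279 CPM in replicate 2 (274 to 284), or about 10904 and 11745 reads. Its mean of 265 ± 18.9 CPM (SD, n = 2) was the only member mean above 100 CPM, a level reached by 4.65% of all genes. The 2 libraries lay close, at 1.11-fold, although their counting intervals did not meet.

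The study measured *Sox9* by quantitative PCR with the primers below, shown because they fix which part of the gene that assay reads.
Forward: ctgtacctccctgaatac, chr11:112786705-112786722.
Reverse: gccaacaatctaccttaaa, chr11:112786881-112786899.

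Both primers lie in exon 3 of 3, after the coding sequence. Each matched the transcripts of *Sox9* exactly and of no other annotated gene, including the 8 other members.

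The SOXE relatives of *Sox9* took few reads. *Sox8*, which overlaps with *Sox9* in sequence and function, had 11.6 CPM in replicate 1 (10.6 to 12.7) and 5.24 CPM in replicate 2 (4.57 to 5.98). Of the 8 members that averaged 1 CPM or more, it alone was over 2-fold lower in replicate 2, at 2.22-fold, against 3.71% of all 12631 such genes. *Sox10*, on chromosome 15 from 79154908 to 79165240, was at the limit of detection, with 3 reads (0.0693 CPM) in replicate 1 and listed at 0 in replicate 2, where the level of 3 reads was 0.0712 CPM and the exact upper limit of the interval 0.0875 CPM.

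Cells in which *Sox10* is normally high were looked for by their markers. Of 7 Schwann cell and glial markers, 5 had values, and their summed CPM was 17.6 in replicate 1 and 42.3 in replicate 2. Nearly all of this was *Cdh19*, a cadherin, at 14.9 and 39.6 CPM. Of 5 melanocyte markers, *Dct* was listed at 0 in both libraries and *Pmel* had 0.693 and 0.403 CPM, and the other 3 had no value under their symbols.

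The SOXD genes of the trio were both well above detection. *Sox5* had 38.3 CPM in replicate 1 (36.5 to 40.2) and 52.4 CPM in replicate 2 (50.2 to 54.6). *Sox6* had 52.3 CPM (50.2 to 54.5) and 50.0 CPM (47.9 to 52.2). The intervals of *Sox5* did not meet and those of *Sox6* did, on CPM as deposited. Measured from the median log2 ratio of all genes, *Sox5* was the nearer of the pair, at 0.14 against -0.37 for *Sox6*. Which of them was steadier thus depends on the scaling. *Sox13*, the remaining SOXD gene, had 1.99 CPM (1.59 to 2.45) and 2.04 CPM (1.63 to 2.52), nearly the same in both libraries.

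The SOXC genes were each higher in replicate 2, as were 74.3% of all 12631 genes that averaged 1 CPM or more. *Sox4* had 21.9 CPM in replicate 1 (20.5 to 23.3) and 54.0 CPM in replicate 2 (51.8 to 56.3), a 2.47-fold difference. *Sox12*, described as the weaker activator of the group, had 3.49 CPM (2.95 to 4.09) and 8.16 CPM (7.32 to 9.07), or 2.34-fold. *Sox11* had 0.624 CPM (0.411 to 0.908) and 2.14 CPM (1.72 to 2.62), which rest on about 27 and 90 reads. In none of the 3 genes did the counting intervals of the libraries meet.

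**Figure D2:**
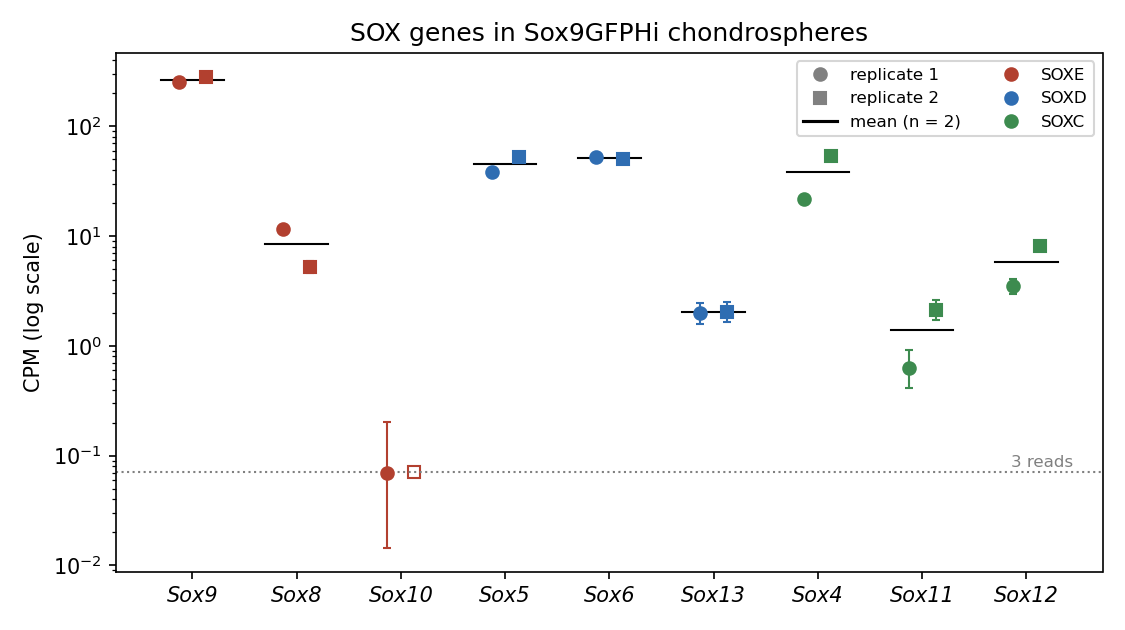
CPM of the 9 SOX genes on a log scale, with replicate 1 as circles, replicate 2 as squares, 95% counting intervals as bars, the mean of both libraries as a black line (not drawn for *Sox10*) and the groups in colour. The values are not divided by gene length. *Sox9* lies at 252 and 279 CPM, and *Sox10* lies at the level of 3 reads (the open square stands for a value listed at 0). All 3 SOXC genes are higher in replicate 2, as are 74.3% of the 12631 genes that averaged 1 CPM or more.

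Other SOX protein genes with values were *Sox3*, *Sox7*, *Sox17* and *Sox18*. *Sox17* and *Sox18*, which are known from endothelial cells, and *Sox3* were listed at 0 in both libraries, and *Sox7*, of the same group as *Sox17*, had 0.116 and 0.142 CPM. The defining endothelial markers *Cdh5*, *Tek*, *Kdr* and *Emcn* were likewise listed at 0, and *Pecam1*, the gene of the sorted-out CD31, had 0.231 and 0.166 CPM. *Sry*, *Sox1*, *Sox2*, *Sox14*, *Sox15*, *Sox21* and *Sox30* had no value under these symbols. Of the 15 genes named *Sox* with values, 2 of them antisense genes, 8 averaged 1 CPM or more, against 53.5% of all genes. All 8 were members, but the members were chosen with earlier results of these data known.

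For the order of the members, levels were divided by length, as CPM per kb of annotated exons. Thresholds and comparisons given in CPM elsewhere are not divided by length. On this scale *Sox9* had 60.9 CPM per kb in replicate 1 and 67.4 in replicate 2, and ranked 427 among the 22967 genes with a length. *Sox4* followed with 4.56 and 11.3 CPM per kb, then *Sox6* with 3.53 and 3.37, *Sox5* with 2.67 and 3.64, and *Sox8* with 3.73 and 1.68. The lowest were *Sox12* with 0.783 and 1.83 CPM per kb, *Sox13* with 0.461 and 0.473, and *Sox11* with 0.0751 and 0.257.

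Only some steps of this order were larger than the spread between libraries. *Sox9* was first in both libraries, above *Sox4* by a log2 ratio per kb of 3.16 ± 0.82 (SD, n = 2). *Sox4* was second in both, but the step below it differed. In replicate 1 it had 4.56 CPM per kb against 3.73 for *Sox8* and 3.53 for *Sox6*. In replicate 2 it had 11.3 against 3.64 for *Sox5* and 3.37 for *Sox6*. The log2 ratio per kb of *Sox5* to *Sox4* was -1.20 ± 0.60 (SD, n = 2). When the longest coding transcript set the length, *Sox5* was above *Sox4* in replicate 1, at 0.21, and below it in replicate 2, at -0.64. With that length *Sox6* was also above *Sox4* in replicate 1, at 6.04 against 4.56 CPM per kb. In replicate 2 *Sox6* was below it, at 5.77 against 11.3. *Sox6*, *Sox5* and *Sox8* changed order: *Sox8* was above *Sox6* and *Sox5* in replicate 1 and below both in replicate 2. *Sox12* was below *Sox8* in replicate 1 and above it in replicate 2. *Sox13* stood above *Sox11* in both libraries, by a log2 ratio per kb of 1.75 ± 1.23 (SD, n = 2).

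Within the trio, *Sox9* exceeded *Sox5* by a log2 ratio per kb of 4.36 ± 0.22 and *Sox6* by 4.22 ± 0.15 (SD, n = 2 each), far beyond the spread between libraries. The log2 ratio per kb of *Sox5* to *Sox6* was -0.15 ± 0.36 (SD, n = 2), within that spread. The choice of length sets the size of the ratios of *Sox9* to its partners, because the annotated exons of *Sox5* cover 14376 bases and its longest coding transcript 7243. With that transcript as the length, the log2 ratio of *Sox9* was 3.37 to *Sox5* and 3.44 to *Sox6*. The level of *Sox9* per kb of exons was 9.84 times the sum of *Sox5* and *Sox6* in replicate 1 and 9.61 times in replicate 2, and with the longest coding transcript it was 5.38 and 5.19 times.

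**Figure D3:**
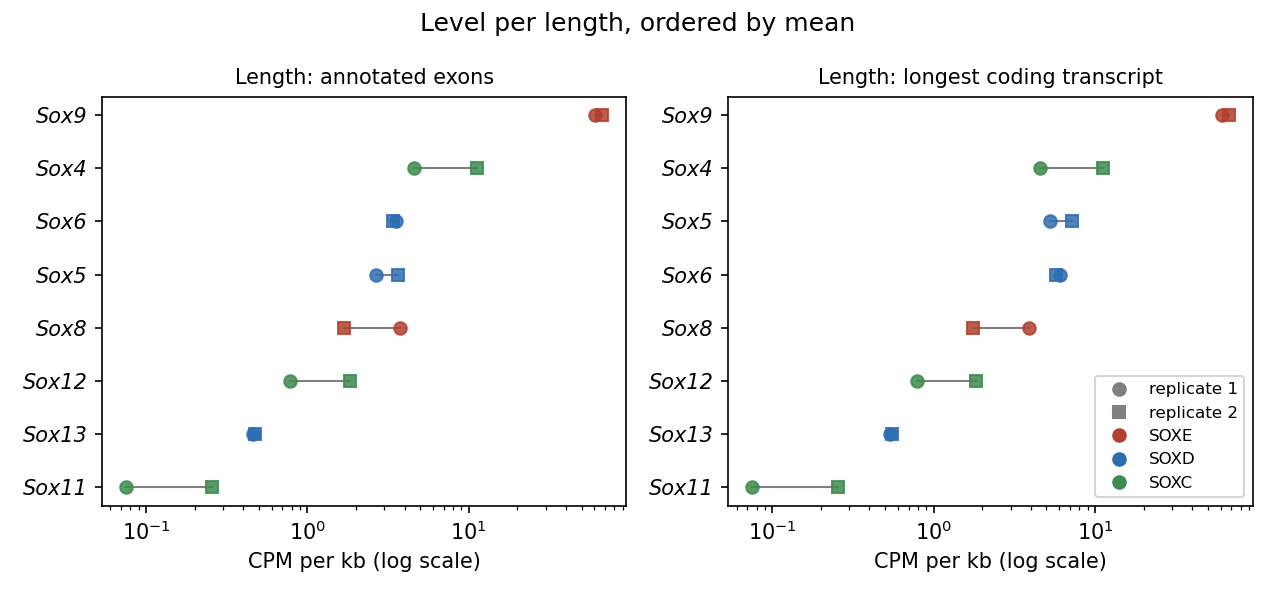
CPM per kb on a log scale for the 8 members with a mean of at least 1 CPM, divided by annotated exons (left) or by the longest coding transcript (right), with replicate 1 as circles and replicate 2 as squares joined by a line. *Sox9* is first under both lengths, and *Sox5* and *Sox6* move from below to beside *Sox4* in the right panel.

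As shares of the summed level per kb of all SOX protein genes with values, *Sox9* held 79.3% in replicate 1 and 74.9% in replicate 2, and *Sox5* with *Sox6* held 8.07% and 7.79%. The trio together held 87.4% and 82.7%. The share of the SOXC genes was 7.06% in replicate 1 and 14.9% in replicate 2, and most of it was *Sox4*, which alone held 5.94% and 12.5%. The share of *Sox8* was 4.85% in replicate 1 and 1.87% in replicate 2. *Sox9* alone thus made up most of the SOX level in both libraries, in cells sorted for its reporter. In the remainder replicate 2 had a larger share of *Sox4* and a smaller share of *Sox8*.

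The spread between the libraries differed from member to member. On CPM as deposited, with a pseudocount of 0.1 CPM, 3 of the 8 members that averaged 1 CPM or more were over 2-fold higher in replicate 2, against 11.4% of all 12631 genes. These were *Sox11*, *Sox4* and *Sox12*, with log2 ratios of 1.63, 1.30 and 1.20. *Sox8* was the 1 member over 2-fold lower, at -1.13, against 3.71% of all genes. The log2 ratio was 0.45 for *Sox5*, 0.15 for *Sox9*, 0.04 for *Sox13* and -0.07 for *Sox6*, so the trio differed little.

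After the median of all genes was subtracted, fewer members were past 2-fold. *Sox11*, at 1.32, was then the 1 member over 2-fold higher, against 7.43% of all genes, and *Sox8*, at -1.44, the 1 member over 2-fold lower, against 6.06%. *Sox4* lay just under the threshold at 0.996 and *Sox12* at 0.90, while *Sox9* stood at -0.16, *Sox6* at -0.37, *Sox13* at -0.27 and *Sox5* at 0.14. The sign for *Sox9* and *Sox13* is therefore positive as deposited and negative after this centring. Scaled by a trimmed mean of log ratios, *Sox4* was past 2-fold too, at 1.02. With 1 library on each side, these are values of 2 libraries and not effects of a condition.

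**Figure D4:**
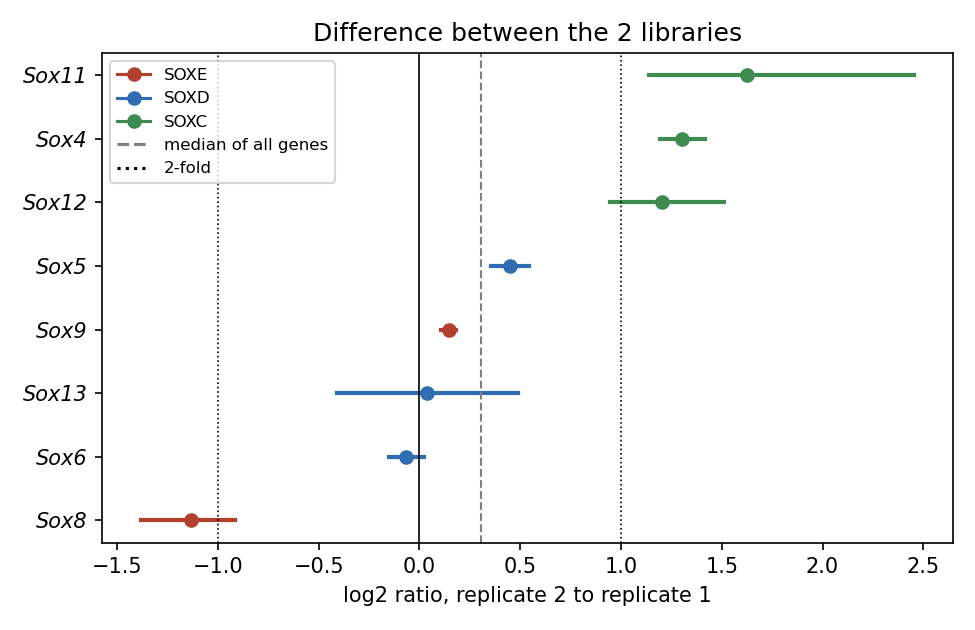
Log2 ratio of replicate 2 to replicate 1 for 8 SOX genes (points, with a pseudocount of 0.1 CPM) with 95% counting intervals of the ratio of implied reads (lines), beside the median of all genes (dashed) and 2-fold (dotted). The 3 SOXC genes lie to the right at 1.20 to 1.63, *Sox8* lies to the left at -1.13, and *Sox9*, *Sox5*, *Sox6* and *Sox13* lie between -0.07 and 0.45.

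Most genes that SOX9 is known to bind or activate in cartilage were at 100 CPM or more. Of 18 such genes, 16 reached this level in replicate 1 and 14 in replicate 2, with a median over the list of 1272 CPM, and 15 had a higher level per kb than *Sox9* itself. They include *Col2a1* and *Acan*, the main collagen and proteoglycan of cartilage, *Papss2*, which makes the sulfate donor for proteoglycans, at 2510 and 1714 CPM, and *Cnmd*, the gene of chondromodulin, at 1241 and 878 CPM. *Wwp2*, a ubiquitin ligase that binds SOX9, had 949 and 789 CPM. The 2 under 100 CPM in both libraries were *Epyc*, which encodes epiphycan, at 1.22 and 0.688 CPM, and *Nkx3-2*, a repressor of *Runx2*, at 3.44 and 3.25 CPM.

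Of the 17 targets that averaged 1 CPM or more, 16 lay below the median of all genes in the ratio of replicate 2 to replicate 1, and the centred log2 ratios had a median of -0.81. The exception was *Hapln1*, a link protein gene, at 0.16. Of the 17, 5 were over 2-fold lower, against 6.06% of all genes. The largest difference was that of *Matn1*, at 902 and 29.2 CPM, a centred log2 ratio of -5.25. *Ucma*, a secreted protein of upper-zone cartilage, had 373 and 94.4 CPM, and *Snorc*, a chondrocyte proteoglycan, had 259 and 128 CPM. *Sox9* itself stood at -0.16 on the same scale. Because the per-million total is shared by all genes, the high targets also affect the CPM of the others, and the 10 highest genes took 43.4% and 34.7% of it.

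Genes of proteins that work with SOX9 were also measured. Of 9 coactivators and partners, 7 had a mean of at least 1 CPM, and none of these was over 2-fold higher or lower after centring, against 7.43% and 6.06% of all genes, with a median log2 ratio of -0.06. *Crebbp* and *Ep300*, the acetyltransferases CBP and p300, had means of 52.7 ± 6.40 and 48.4 ± 7.94 CPM, and the Mediator subunit genes *Med12* and *Med25* 48.6 ± 3.36 and 55.3 ± 0.911 CPM (SD, n = 2 each). *Maf*, a basic leucine zipper factor, had a mean of 28.2 ± 2.49 CPM (SD, n = 2) and *Arid5b* had 10.9 and 15.2 CPM. *Ppargc1a* reached at most 0.308 CPM, and *Barx2* had 3 reads in replicate 2 and a listed value of 0 in replicate 1.

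Genes for the modification and turnover of SOX9 were present too. *Prkaca*, a catalytic subunit of protein kinase A, had 25.9 and 36.3 CPM, and *Fbxw7*, a ubiquitin ligase subunit, 15.6 and 18.3 CPM. After centring, 0 of the 5 genes of this list were over 2-fold higher or lower, against 7.43% and 6.06% of all genes.

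The 5 genes described as opposing SOX9 all lay above the median of all genes in the ratio of replicate 2 to replicate 1, with a median centred log2 ratio of 0.91, and 1 was over 2-fold higher, against 7.43% of all genes. That gene was *Snai1*, a zinc finger repressor, with 23.8 and 66.9 CPM. *Runx2*, the osteoblast and hypertrophy factor, had 16.2 and 39.6 CPM, and *Twist1* had 5.15 and 12.1 CPM. *Snai2* had 78.0 and 131 CPM and *Ctnnb1*, which encodes β-catenin, 412 and 673 CPM.

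Other cell types were checked beside the SOXC difference. The 4 osteoblast markers *Sp7*, *Ibsp*, *Alpl* and *Bglap* had a summed CPM of 4.75 in replicate 1 and 12.2 in replicate 2. *Sp7* had 1.96 and 6.81 CPM and *Ibsp* 2.24 and 3.27, while *Alpl* and *Bglap* stayed under 2 CPM. The CPM of the SOXC genes summed to 26.0 and 64.3. On CPM as deposited, 74.3% of all 12631 genes were higher in replicate 2, and 11.4% were over 2-fold higher. A link between the lists was not tested. The 5 fibroblast and tendon markers summed to 37.7 and 33.7 CPM, nearly all of it *Scx*, a tendon and ligament factor, and *Tnmd* was listed at 0 in both libraries. The 4 blood cell markers summed to 0.116 and 0.142 CPM. The part of osteoblast-type cells in the SOXC difference was not tested.

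**Figure D5:**
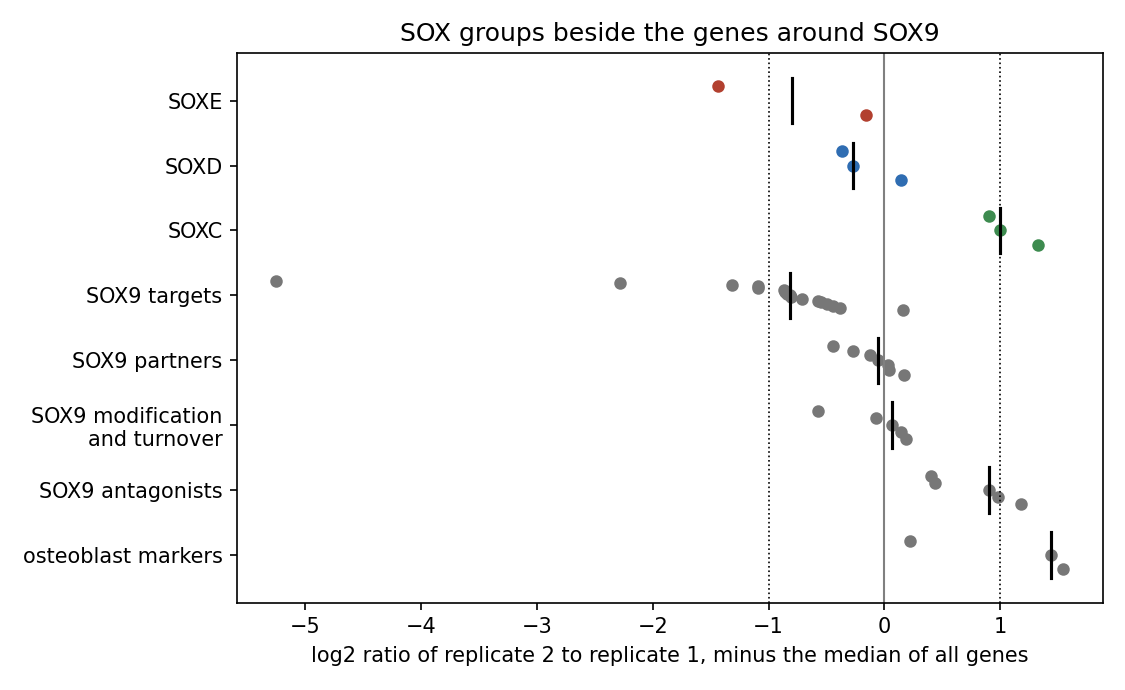
Log2 ratio of replicate 2 to replicate 1 minus the median of all genes, 1 point per gene with a mean of at least 1 CPM, by SOX group and gene list, with list medians as black lines and 2-fold as dotted lines. The SOXC genes, the genes opposing SOX9 and the osteoblast markers lie to the right of 0, and all but 1 of the SOX9 targets lie to the left.

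Set beside 12 other transcription factor genes of cartilage, *Sox9* was the highest, and none of the 12 exceeded it per kb or in CPM. The cells were sorted for a reporter at the *Sox9* locus, so this rank is partly set by how they were chosen. Against 64.2 ± 4.56 CPM per kb for *Sox9* (SD, n = 2), the highest means among them were 18.4 CPM per kb for *Foxo1*, 12.9 for *Shox2*, a homeobox factor of the proximal limb, 12.2 for *Barx1*, another homeobox factor, and 10.6 for *Trps1*, a GATA-type repressor. In CPM, *Foxo1* had 172 and 146, *Shox2* 32.3 and 53.4, and *Trps1* 121 and 164. *Nfatc2*, at 2.03 and 13.5 CPM, differed more between the libraries than any SOX member.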

How the data were processed

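RNA-sequencing values of 2 libraries of Sox9GFPHi chondrospheres were used. The authors aligned single-end reads to GRCm38 (mm10) with the GENCODE M25 annotation by STAR 2.7.3a in Partek Flow 10.0.21.0801, assigned them to genes with the E/M method of Partek and deposited CPM values with an offset of 0.0001, which was subtracted. E/M can divide a read among genes.

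Mean and SD of both libraries, log2 ratios (pseudocount 0.1 CPM) and CPM per kb were computed with Python 3.11.15, numpy 2.4.6, pandas 2.3.3 and scipy 1.17.1. A fold on the pseudocount scale understates the change of low genes. Lengths, positions and transcript sequences come from GENCODE M21 on GRCm38, in which 22967 genes (97.2%) matched by name. No test was run, since there is 1 condition. The computation was tested on simulated data.

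The members and the gene lists were chosen with earlier results of these data known. Named were the members, other *Sox* genes and the genes of the lists. With 2 libraries no likeness of pattern across samples could be measured. Alternatives covered scaling, pseudocount, centring, length, thresholds and each library left out.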

Additional observations from a re-analysis of the deposited data

Results flagged for a closer look

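*Sox5os1* and *Sox7*, which are not among the 9 members, exceeded 3 reads in each library. *Sox5os1*, an antisense gene within *Sox5*, had 0.238 and 0.0962 CPM in the 2 libraries, a mean of 0.167 CPM. *Sox7* had a mean of 0.129 CPM. The values rest on about 10 and 4 reads for *Sox5os1* and about 5 and 6 reads for *Sox7*.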

How the results depend on the processing

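Changing 1 choice at a time gave 142 values for 29 results. In 113 the shift stayed under the SD of the libraries (counting interval for ratios between libraries, 1.5 times for counts), in 27 it was larger, and 2 reversed. Of the 142 values, 40 left out 1 library. A mean of 2 values is always within their SD of each, so single libraries show no stability. Both reversals concern *Sox5* to *Sox6*: the log2 ratio per kb was 0.068 with the longest coding transcript, and ran from -0.40 to 0.11 over single libraries. The cause of the other changes was not tested, except where a smaller total or length fixes them. Without the 10 highest genes in the total, *Sox9* had 436 CPM and the target list a median of 2130 CPM. With the longest coding transcript the log2 ratio was 3.37 for *Sox9* to *Sox5* and 3.44 for *Sox9* to *Sox6*, and *Sox9* held 72.2% of the SOX level. Without division by length these were 2.56, 2.37 and 63.7%. Members past 2-fold between libraries numbered 2, against 4 without centring and 1 with a pseudocount of 1 CPM. A mean of 10 CPM was reached by 4 SOX genes in place of 8 at 1 CPM. No paired analysis was possible because there is 1 group. Depth limits *Sox10*, *Sox7* and *Sox5os1*, at 10 reads or fewer.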
